A study of Mus musculus with 9 samples.

Results

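Secretion of saliva is switched on by nerves, and the receptors that receive those signals were followed here in the submandibular salivary gland of the mouse at 30, 60 and 90 days after 10 Gy of radiation. The 8 receptor genes were listed by name from the muscarinic, adrenergic, VIP (vasoactive intestinal peptide) and tachykinin families: Chrm1, Chrm3, Adra1a, Adra1b, Adrb1, Vipr1, Vipr2 and Tacr1. All 8 were present among the 54532 genes of the deposited count table, and 6 passed the filter on low counts, Vipr2 and Tacr1 being the exceptions. The study measured bulk RNA in 9 libraries, 3 at each time point, each made from 4 gland sections of 50 µm. Every mouse behind these libraries was wild type and had been irradiated with 10 Gy, so the comparisons are between irradiated glands, and the time since irradiation cannot be told apart from the age of the mice. Non-irradiated glands, which the protocol names, were not analysed here. The labels name neither age nor sex nor batch and do not say whether the samples of a group are separate animals, so the p-values measure only the spread between these samples, which may be technical. The title of the study names muscarinic agonism.

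Acetylcholine from parasympathetic nerves acts on the muscarinic receptors M1 and M3, which couple to Gq, and the calcium that is then released opens the channels through which salt and water leave the acinar cells. Noradrenaline from sympathetic nerves acts on alpha-1 receptors, which also couple to Gq, and on beta-1 receptors, which couple to Gs, raise cyclic AMP and drive the release of stored protein. The peptides VIP and substance P are also released by nerves. VIP acts through Vipr1 and Vipr2, which raise cyclic AMP, and substance P through Tacr1, which releases calcium.

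In outline, Adra1a rose and Adrb1 fell from 30 to 60 days, Adrb1 and Chrm3 were lower at 90 than at 30 days, and Chrm1, Adra1b and Vipr1 showed no difference that passed the test. The values that follow are CPM, the counts of a gene scaled to the total of its library and by TMM factors (trimmed mean of M-values), on one scale for all libraries. Differences are log2 fold changes from a fit over all 9 libraries, and adjusted p-values are from edgeR's quasi-likelihood test with Benjamini-Hochberg adjustment over 15224 genes, with 0.05 as the threshold.

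The total count was 16541396 to 17179500 in the 30-day libraries, 21722141 to 24880803 in the 60-day libraries and 20410818 to 26065856 in the 90-day libraries, so every 30-day library was shallower than every later one. A single secretory gene, Mucl2, took 31.4% to 42.8% of the counts. Summed levels of 10 duct marker genes were 20140 to 27201 CPM at 30 days, 36556 to 44189 CPM at 60 days and 31967 to 42624 CPM at 90 days. Klk1, the most abundant of them (mean 20401 CPM), was not called by edgeR at 60 or 90 days against 30 days (adjusted p = 0.655 and 0.956). Of the 10, 4 were called higher at 60 and at 90 days than at 30 days, against 1.14% and 1.81% of all genes. Of 8 acinar markers 1 was called higher and 2 lower at 90 than at 30 days, against 1.81% and 1.77% of all genes. Their sum, which is mostly Mucl2, ran from 392353 to 533696 CPM at 30 days and from 272052 to 406155 CPM at 90 days. The acinar and duct markers that define the labelled gland were present in all 9 libraries. Of the markers of the neighbouring sublingual gland, Tff2 had 0 counts in all 9 libraries, and Muc19 had 1 to 5 counts a library at 30 and 60 days and 12 to 23 at 90 days (log2 difference from 60 days 2.17 ± 0.70, SE; adjusted p = 0.258). Of the muscle markers, Myh4 had 0 counts in all 9 libraries, Ckm had 18 to 54 and Acta1 had 1 to 14. Samples 1 and 2 at 90 days carried 376 and 111 counts of 6 of the 7 ganglion neuron markers, against 1 to 25 in the other 7 libraries. The seventh, Ret, had 1701 to 3270 counts a library, and with it the summed list was 123 and 96.5 CPM in those samples and 97.3 to 142 CPM in the others. This sum did not set those samples apart, but it is mostly Ret and says little about the other 6 genes. In addition, 90-day sample 2 had the highest summed immune markers (113 CPM, others 33.8 to 60.8 CPM) and red cell markers (214 CPM, others 40.2 to 95.7 CPM). The part of these differences in the receptor results was not tested. In bulk tissue, fewer cells of a type and less RNA per cell cannot be told apart.

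The receptor genes differ widely in how much transcript the gland held, and levels of different genes are given per kilobase of annotated exon (CPM per kb, GENCODE release 21). Over the 9 libraries the mean level was 27.2 ± 9.88 CPM per kb for Adrb1, 4.45 ± 0.799 for Chrm3 and 3.65 ± 0.747 for Adra1a (SD, n = 9). It was 2.00 ± 0.202 CPM per kb for Vipr1, 0.925 ± 0.0896 for Chrm1 and 0.306 ± 0.109 for Adra1b (SD, n = 9). Adrb1 stood above the next receptor, Chrm3, in 9 of 9 libraries, with a ratio of the mean levels of 6.12, and the ranges of these genes did not overlap. Nor did the ranges overlap between Adra1a and Vipr1, between Vipr1 and Chrm1, or between Chrm1 and Adra1b.

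**Figure D1:**
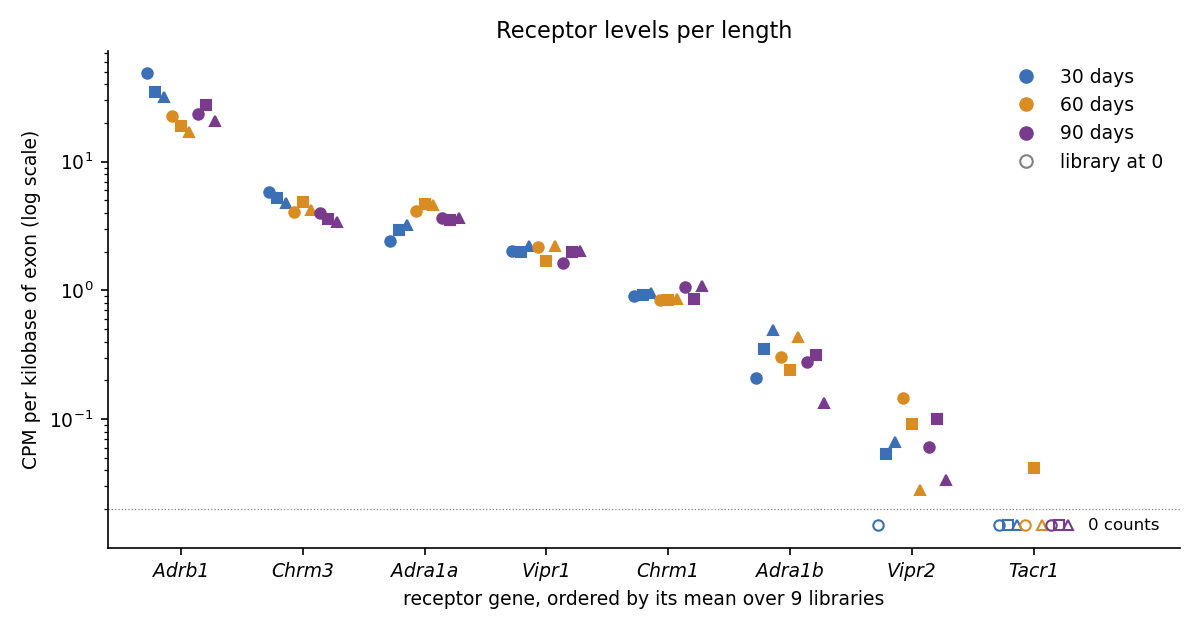
Level of each receptor gene in each library, in CPM per kilobase of exon on a log scale, with receptors ordered by their mean over 9 libraries; colours are time points, marker shapes are sample numbers, and open markers under the dotted line are libraries at 0 counts. Adrb1 lies above all other receptors in every library, Chrm3 and Adra1a overlap, and Tacr1 has counts in 1 library.

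The order of Chrm3 and Adra1a depended on the time point and on the gene length. Per kilobase of exon, Chrm3 was above Adra1a in 3 of 3 libraries at 30 days, in 1 of 3 at 60 days and in 2 of 3 at 90 days. With the longest transcript as the length, Chrm3 was above Adra1a in 3 of 3 libraries at 30 days and in 0 of 3 at 60 and at 90 days. The remaining neighbours in the order, Adra1b with Vipr2 and Vipr2 with Tacr1, had overlapping ranges.

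Chrm3, which encodes the M3 receptor, the main muscarinic receptor for fluid secretion, lies at chr13:9875486-10360847 on the minus strand (GRCm38). Adrb1, which encodes the beta-1 receptor, lies at chr19:56722199-56733113 on the plus strand. Both were lower at 90 than at 30 days, and a stretch upstream of each is shown so that the receptors called in that comparison can be set side by side (RefSeq, GRCm38.p6). These stretches are chr13:10360848-10361053, minus strand, 206 bases, for Chrm3 and chr19:56721867-56722116, plus strand, 250 bases, for Adrb1. The Chrm3 stretch adjoins the gene as placed above, while the Adrb1 stretch ends at 56722116, short of the gene start at 56722199. Capitals mark letters matched by the motifs searched.
Chrm3: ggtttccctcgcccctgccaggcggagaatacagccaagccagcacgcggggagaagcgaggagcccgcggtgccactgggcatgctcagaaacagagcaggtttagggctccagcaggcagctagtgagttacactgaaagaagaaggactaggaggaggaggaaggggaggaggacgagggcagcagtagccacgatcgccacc
Adrb1: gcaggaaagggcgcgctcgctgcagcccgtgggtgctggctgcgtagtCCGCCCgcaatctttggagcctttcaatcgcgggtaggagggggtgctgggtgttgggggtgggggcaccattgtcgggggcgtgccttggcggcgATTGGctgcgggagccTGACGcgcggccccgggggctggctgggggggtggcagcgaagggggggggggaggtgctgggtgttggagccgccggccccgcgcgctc

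The 5 motifs were searched on both strands. They were the TATA box, searched as TATAAA, the GC box, searched as GGGCGG, and the CCAAT box, searched as the letters of its name. The others were partial sites, searched as TGACG for the cyclic AMP response element and as AGAACA for steroid receptors. The Adrb1 stretch has a GC content of 74.0% and holds 1 GC box, printed as its reverse complement, 1 CCAAT box, likewise reversed, and 1 cyclic AMP partial site, none of which overlap. The Chrm3 stretch has a GC content of 62.1% and holds 0 of the 5 motifs. Among 32851 promoters of 250 bases in the same table, 12.4% hold the TATA box letters, 32.7% the GC box, 33.8% the CCAAT box, 17.8% the cyclic AMP partial site and 16.1% the steroid partial site. Windows were found for 6 of the 8 receptors. In the others the same search over 250 bases found 3 GC boxes, 1 CCAAT box and 1 cyclic AMP partial site for Vipr1, 1 GC box for Vipr2 and 1 cyclic AMP partial site for Tacr1. Of the windows for Adra1b, 1 held 2 CCAAT boxes and the other held 1 GC box. These matches describe letters in the sequence only.

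From 30 to 60 days, Adra1a rose and Adrb1 fell. These were 2 of the 6 receptors tested, where 1.56% of all genes passed the threshold, 1.14% higher and 0.427% lower. At an unadjusted p under 0.05 there were 3, with Chrm3 as the third, and the comparison shares its 60-day libraries with that of 90 against 60 days and its 30-day libraries with that of 90 against 30 days.

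Adra1a encodes the alpha-1A receptor (chr14:66635251-66771168, plus strand). It measured 21.03, 25.6 and 28.3 CPM in samples 1, 2 and 3 at 30 days, 36.4, 40.9 and 40.02 CPM at 60 days and 31.7, 30.9 and 31.9 CPM at 90 days. Every 60-day library was above every other library, the 30-day libraries were the lowest, and no time points overlapped. The log2 fold change was 0.65 ± 0.12 (SE) from 30 to 60 days (adjusted p = 0.00557), higher in 3 of 3 libraries, which is a fold of 1.56. From 60 to 90 days it was -0.31 ± 0.11 (adjusted p = 0.314), and from 30 to 90 days 0.33 ± 0.12 (adjusted p = 0.129), neither of which passed the threshold. The rise to 60 days lost its call with library-size scaling alone, where it was 0.68 (adjusted p = 0.0736), and without 60-day sample 2, where it was 0.61 (adjusted p = 0.0523).

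Adrb1 was the most abundant receptor and moved in the opposite direction. It measured 164, 117 and 107 CPM in samples 1, 2 and 3 at 30 days, 76.3, 64.2 and 57.2 CPM at 60 days and 79.1, 93.6 and 70.6 CPM at 90 days. Every 30-day library was above every later library, with 30-day sample 1 the highest of all, and the 60- and 90-day values overlapped. Adrb1 fell by 0.97 (SE 0.16) on the log2 scale from 30 to 60 days (adjusted p = 0.00594), to a fold of 0.510. From 60 to 90 days its log2 fold change was 0.30 ± 0.16 (adjusted p = 0.528). Without 60-day sample 2 the fall to 60 days was -0.95 (adjusted p = 0.0539), the only one of 17 alternatives that ended this call.

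**Figure D2:**
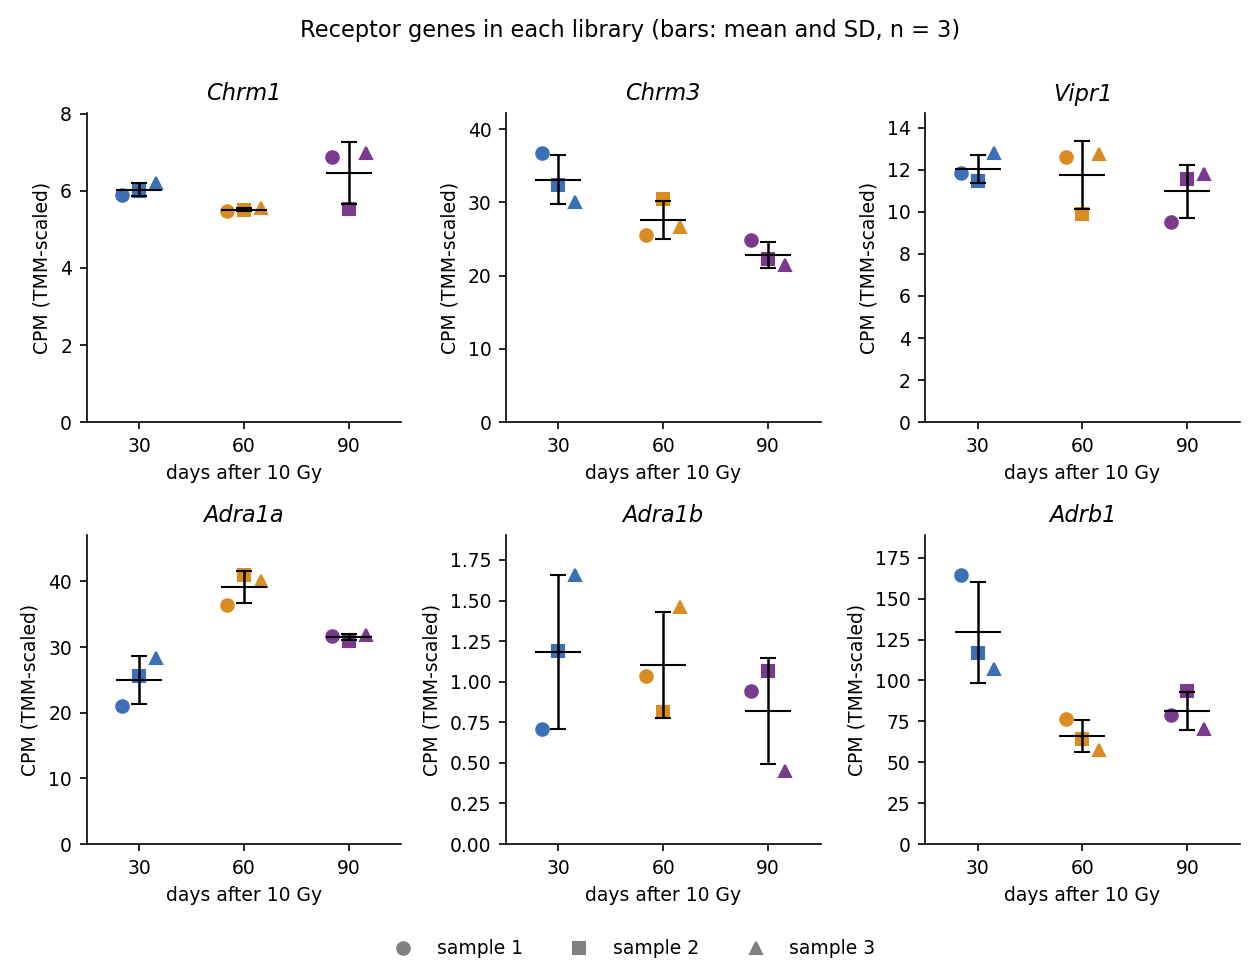
CPM after TMM scaling of the 6 receptor genes that passed the filter, by day after irradiation; each point is a library, marker shapes are sample numbers, and the bars show the mean and SD of 3 libraries. Adra1a is highest at 60 days, Adrb1 is highest at 30 days, Chrm3 is lowest at 90 days, and the time points of Vipr1 and Adra1b overlap.

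The products of Adra1a and Adrb1 answer the same transmitter, and the counts of Adra1a and Adrb1 were also set against each other within each library, which does not depend on how libraries are scaled. This ratio was chosen after the data were seen and carries no test. On the log2 scale it was -2.97, -2.19 and -1.92 in samples 1, 2 and 3 at 30 days, -1.07, -0.65 and -0.52 at 60 days and -1.32, -1.60 and -1.15 at 90 days. All 30-day ratios were below all later ones. Adra1a counts were on average 0.195 of the Adrb1 counts at 30 days, 0.597 at 60 days and 0.391 at 90 days, as counts with no correction for gene length. The log2 ratio was 1.61 higher at 60 than at 30 days, and 1.31 to 1.83 higher when each sample was left out in turn. In each time point the library with the highest Adrb1 had the lowest Adra1a.

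From 60 to 90 days, 0 of the 6 receptors passed the threshold by edgeR, DESeq2 or limma-voom, where 0.256% of all genes passed in edgeR, 0.092% higher and 0.164% lower. At an unadjusted p under 0.05 there were 2, Adra1a and Chrm3, and the values of both are given with those genes.

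From 30 to 90 days, Adrb1 and Chrm3 fell. These were 2 of the 6 receptors, both lower, where 1.77% of all genes were called lower and 1.81% higher, 3.57% in all. Adrb1 fell by 0.67 (SE 0.16; adjusted p = 0.0304), lower in 3 of 3 libraries. Its call held under 11 of 17 alternatives, and was lost with library-size scaling alone, where it fell by 0.41 (adjusted p = 0.168), and with only the 6 samples of the contrast (adjusted p = 0.0514). It was also lost without 30-day sample 1, where the change was -0.47 (adjusted p = 0.115), without 60-day sample 2 (adjusted p = 0.0534), without 90-day sample 1 (adjusted p = 0.0758) and without 90-day sample 3 (adjusted p = 0.127).

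Chrm3 measured 36.7, 32.4 and 30.1 CPM in samples 1, 2 and 3 at 30 days, 25.5, 30.5 and 26.6 CPM at 60 days and 24.9, 22.3 and 21.4 CPM at 90 days. Every 90-day library was below every earlier library, while the 30- and 60-day values overlapped. Chrm3 fell by 0.53 (SE 0.12) from 30 to 90 days (adjusted p = 0.0148), and the separate steps were -0.26 ± 0.12 to 60 days (adjusted p = 0.356) and -0.27 ± 0.12 from there to 90 days (adjusted p = 0.425). With library-size scaling alone the fall was -0.29 (adjusted p = 0.335). The call was also lost without 30-day sample 1, where the change was -0.45 (adjusted p = 0.101), without 90-day sample 2 (adjusted p = 0.0744) and without 90-day sample 3 (adjusted p = 0.0751), and it held without 90-day sample 1.

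**Figure D3:**
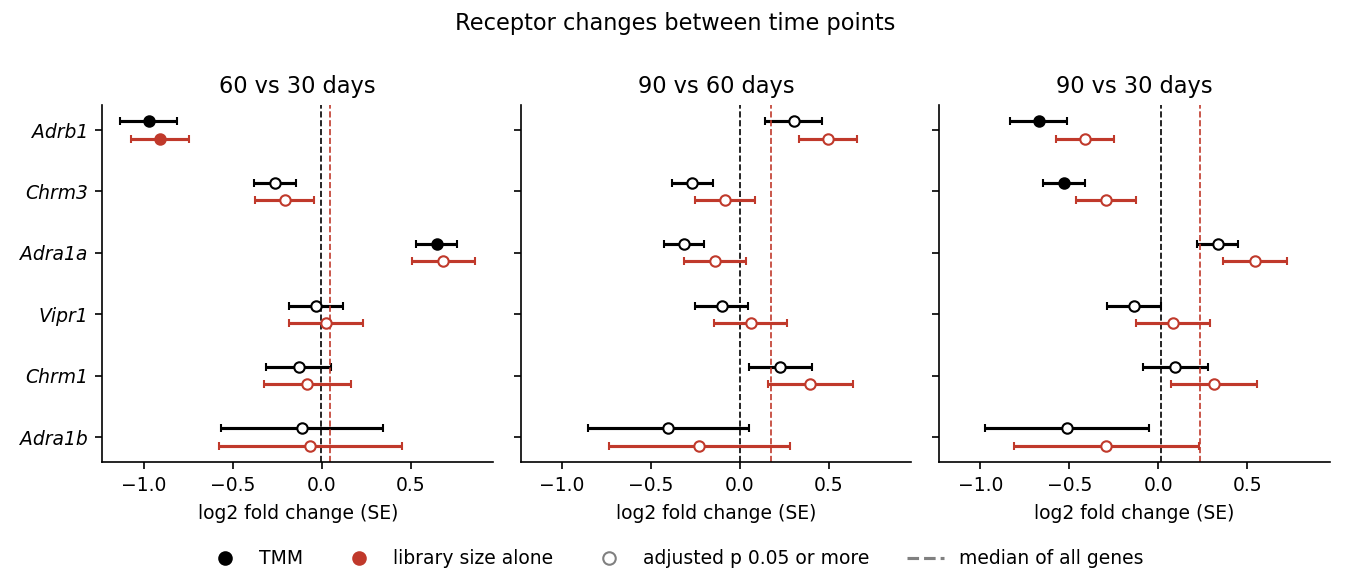
Log2 fold change (points) and SE (bars) of the 6 receptors tested in each pair of time points, with TMM scaling in black and library-size scaling in red; filled points have an adjusted p under 0.05, and dashed lines mark the all-gene median under each scaling. Adra1a and Adrb1 are filled at 60 against 30 days and Adrb1 and Chrm3 at 90 against 30 days with TMM, while Adrb1 at 60 against 30 days is the only filled point with library-size scaling.

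The scaling matters for the later glands. Over all genes the median log2 difference was 0.24 for 90 against 30 days and 0.17 for 90 against 60 days with library-size scaling, and 0.01 and 0.00 with TMM. A change of scaling shifts all genes by a similar amount. The falls of Adrb1 and Chrm3 relative to those medians therefore cannot test the choice of scaling.

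The other muscarinic receptor on the receptor list, Chrm1 (chr19:8663789-8683587, plus strand), which also couples to Gq, showed no call. It measured 5.88, 5.998 and 6.21 CPM in samples 1, 2 and 3 at 30 days, 5.48, 5.51 and 5.54 CPM at 60 days and 6.87, 5.53 and 6.97 CPM at 90 days. The 60-day values lay below the 30-day values without overlap, and 90-day sample 2 lay among the 60-day values. The log2 fold changes were -0.13 ± 0.18 (SE) to 60 days (adjusted p = 0.836) and 0.10 ± 0.18 from 30 to 90 days (adjusted p = 0.857). Each library held 83 to 204 counts of Chrm1.

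The relation between the muscarinic receptors was tested as a ratio within each library. The log2 ratio of Chrm3 to Chrm1 counts was 2.64, 2.43 and 2.28 in samples 1, 2 and 3 at 30 days, 2.22, 2.47 and 2.26 at 60 days and 1.86, 2.01 and 1.62 at 90 days. Every 90-day ratio was below every earlier one, and the 30- and 60-day ratios overlapped. There were on average 5.47 counts of Chrm3 for each count of Chrm1 at 30 days, 4.98 at 60 days and 3.55 at 90 days. The time points differed by an exact one-sided permutation test over all 280 ways to part the libraries into 3 groups of 3 (p = 0.0143, or 0.0286 adjusted over 2 ratios, with 0.00357 the smallest possible). When each sample was left out in turn the unadjusted p of this exact permutation test was 0.0143 to 0.0357, highest without 30-day sample 1. The fall of Chrm3 was known when this ratio was chosen, so the ratio is not separate support for it.

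Chrm3 was also set against Aqp5, the water channel of acinar cells, which itself fell from 30 to 90 days by 0.57 (SE 0.12; adjusted p = 0.0113). The log2 ratio of Chrm3 to Aqp5 counts was -3.83, -3.83 and -3.91 in samples 1, 2 and 3 at 30 days, -3.97, -3.34 and -3.63 at 60 days and -3.72, -3.76 and -3.98 at 90 days. The 60-day ratios spread across those of both other time points. The mean was 0.036 higher at 90 than at 30 days, and a difference among the time points did not pass the exact one-sided permutation test (p = 0.461, also adjusted over 2 ratios). Without 60-day sample 1 the same exact permutation test gave p = 0.0214, so that result rests on this library.

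**Figure D4:**
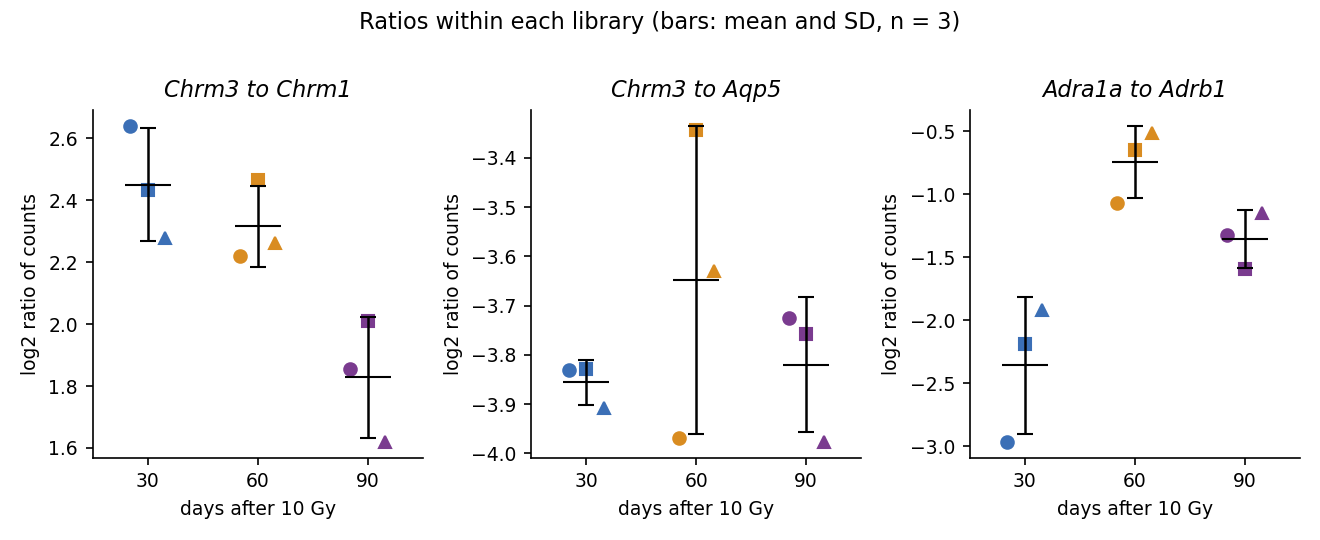
Log2 ratio of the counts of 2 genes in the same library, by day after irradiation; points are libraries, marker shapes are sample numbers, and bars show the mean and SD of 3 libraries. Chrm3 to Chrm1 is lowest at 90 days, Chrm3 to Aqp5 overlaps between time points, and Adra1a to Adrb1 is lowest at 30 days.

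The remaining 4 receptors showed no call. Adra1b, the alpha-1B receptor (chr11:43774606-43901210, minus strand), had 9 to 35 counts a library. It measured 0.708, 1.19 and 1.66 CPM in samples 1, 2 and 3 at 30 days, 1.04, 0.813 and 1.46 CPM at 60 days and 0.943, 1.06 and 0.451 CPM at 90 days. All time points overlapped, the log2 difference between 30 and 90 days was -0.51 ± 0.46 (SE; adjusted p = 0.647), and the difference was about the size of its error. Adra1a and Adra1b both answer noradrenaline through Gq, but the difference between their changes was not tested.

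Vipr1, the VIP receptor VPAC1 (chr9:121642716-121672954, plus strand) showed no call. It measured 11.8, 11.5 and 12.8 CPM in samples 1, 2 and 3 at 30 days, 12.6, 9.90 and 12.8 CPM at 60 days and 9.53, 11.6 and 11.8 CPM at 90 days. All time points overlapped, with 60-day sample 2 and 90-day sample 1 the lowest libraries. Between 30 and 90 days the log2 difference was -0.14 ± 0.15 (SE; adjusted p = 0.730), and library-size scaling gave 0.085.

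Vipr2, the VIP receptor VPAC2 (chr12:116077726-116146261, plus strand), had 0, 4 and 5 counts in samples 1, 2 and 3 at 30 days, 15, 9 and 3 at 60 days and 8, 13 and 3 at 90 days. These counts overlap between time points and were too low to test. Tacr1, the substance P receptor NK1 (chr6:82402334-82560104, plus strand), had 6 counts in 60-day sample 2 and 0 counts in the other 8 libraries. A count of 0 allows up to 3 counts, which is 0.101 to 0.212 CPM in these libraries. In those 8 libraries Tacr1 was therefore not detected at this depth rather than shown to be absent. Such limits cover counting error only.

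Other genes of the same pathways were read from 5 lists with 86 genes, of which 66 passed the filter. From 30 to 60 days 4 of the 66 were called, 3 higher and 1 lower, and from 30 to 90 days 4 were called, 1 higher and 3 lower, against 1.56% and 3.57% of all genes. From 60 to 90 days 2 were called, both lower, against 0.256% of all genes. The test of any difference among time points called 3 of the 6 receptors (Adra1a, Adrb1 and Chrm3) and 6 of the 66 other genes, against 3.29% of all genes. Chrm3 was not called in that test by limma-voom or with library-size scaling alone. Its call was also lost without each of 30-day samples 1 and 2, 60-day sample 2 and 90-day samples 2 and 3. Adra1a lost its call in that test with library-size scaling alone and without 60-day sample 2. The median log2 fold change of the 66 genes was -0.06, 0.04 and 0.02 in these comparisons (60 against 30, 90 against 60 and 90 against 30 days), beside 0.00, 0.00 and 0.01 for all genes.

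Among 19 other receptors of these families, 12 were tested, and 0 were called in any comparison by edgeR, DESeq2 or limma-voom. Of all genes edgeR called 0.256% to 3.57% in these comparisons, so 0 of 12 does not set this list apart. The counts at an unadjusted p under 0.05 were 4, 2 and 2 for 60 against 30, 90 against 60 and 90 against 30 days. Calcrl, the receptor subunit for CGRP and adrenomedullin, had a mean of 4.46 CPM over the 9 libraries.

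The nerve side was thinly sampled. Of 16 genes for transmitters, peptides and their enzymes, 6 were tested and 0 were called by edgeR, DESeq2 or limma-voom. At an unadjusted p under 0.05 there were 0, 1 and 0 in the same order of comparisons. With 0.256% to 3.57% of all genes called by edgeR, 0 of 6 does not set this list apart. Bche, which splits choline esters, had a mean of 11.9 CPM. Vip itself had 32 and 30 counts in 90-day samples 1 and 2 and 0 to 4 counts in the other 7 libraries, and edgeR called it from 60 to 90 days only when run without the filter. The vesicular acetylcholine transporter gene Slc18a3 had 92 and 15 counts in those same libraries and 0 to 11 elsewhere. Tac1, which encodes substance P, had 9 to 30 counts a library, and Npy had 0 in all 9. The libraries with the most Vip and Slc18a3 counts, 90-day samples 1 and 2, are also those with the most counts of the 6 ganglion neuron markers. In 90-day sample 3 there were 2 counts of Vip and 0 of Slc18a3.

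On the Gq arm, which leads from alpha-1 and muscarinic receptors to calcium, 1 of 11 genes was called. The call was for 90 against 30 days and in the test of any difference, where 3.57% and 3.29% of all genes passed. Gna14, a G protein alpha subunit of the Gq family, measured 15.4, 9.98 and 9.40 CPM in samples 1, 2 and 3 at 30 days, 7.07, 7.18 and 6.54 CPM at 60 days and 5.86, 6.15 and 5.62 CPM at 90 days. The time points did not overlap, and 30-day sample 1 stood highest. Gna14 fell by 0.97 (SE 0.19) from 30 to 90 days (adjusted p = 0.00620), while the step to 60 days was -0.74 ± 0.19 (adjusted p = 0.0549). The call to 90 days was lost with library-size scaling alone (-0.72, adjusted p = 0.0717) and without 30-day sample 1 (-0.72, adjusted p = 0.0579). The most abundant genes of this arm, the phospholipase Plcb4 (345 CPM) and the kinase Prkcd (91.1 CPM), were not called by edgeR. DESeq2 called Plcb4 lower at 90 than at 30 days, where edgeR gave -0.40 ± 0.13 (SE; adjusted p = 0.0958).

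On the Gs arm, which leads from beta and VIP receptors to cyclic AMP, 24 of 25 genes were tested. The test of any difference called 5 of them, where 3.29% of all genes passed. Adcy2, an adenylyl cyclase that makes cyclic AMP, measured 4.11, 3.44 and 5.44 CPM in samples 1, 2 and 3 at 30 days, 7.98, 7.91 and 8.05 CPM at 60 days and 10.2, 12.7 and 10.1 CPM at 90 days. No time points overlapped. Adcy2 rose by 0.88 ± 0.19 (SE; adjusted p = 0.0230) to 60 days and by 1.35 ± 0.19 (adjusted p = 0.000581) from 30 to 90 days, and the second of these calls held under 17 of 17 alternatives. The call to 60 days was lost with library-size scaling alone (adjusted p = 0.0844), without 30-day sample 1 (adjusted p = 0.102), without 30-day sample 2 (adjusted p = 0.133) and without 60-day sample 2 (adjusted p = 0.0963). Another cyclase gene, Adcy9, measured 24.8 to 27.3 CPM at 30 days, 23.6 to 29.3 CPM at 60 days and 14.7 to 17.8 CPM at 90 days, all 90-day libraries being lower than all others. It fell by 0.64 (SE 0.12) from 30 to 90 days (adjusted p = 0.00637) and by 0.62 (SE 0.12) from 60 to 90 days (adjusted p = 0.0350). The first of these calls was lost with library-size scaling alone (adjusted p = 0.212) and without 90-day sample 2 (adjusted p = 0.0517). The second held under 8 of 17 alternatives. It was lost with library-size scaling alone (adjusted p = 0.359), with only the 6 samples of the contrast (adjusted p = 0.0616), and without each of 30-day samples 2 and 3, 60-day samples 2 and 3 and all 90-day samples (adjusted p = 0.0509 to 0.209). The most abundant cyclase gene, Adcy6 (148 CPM), was not called.

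**Figure D5:**
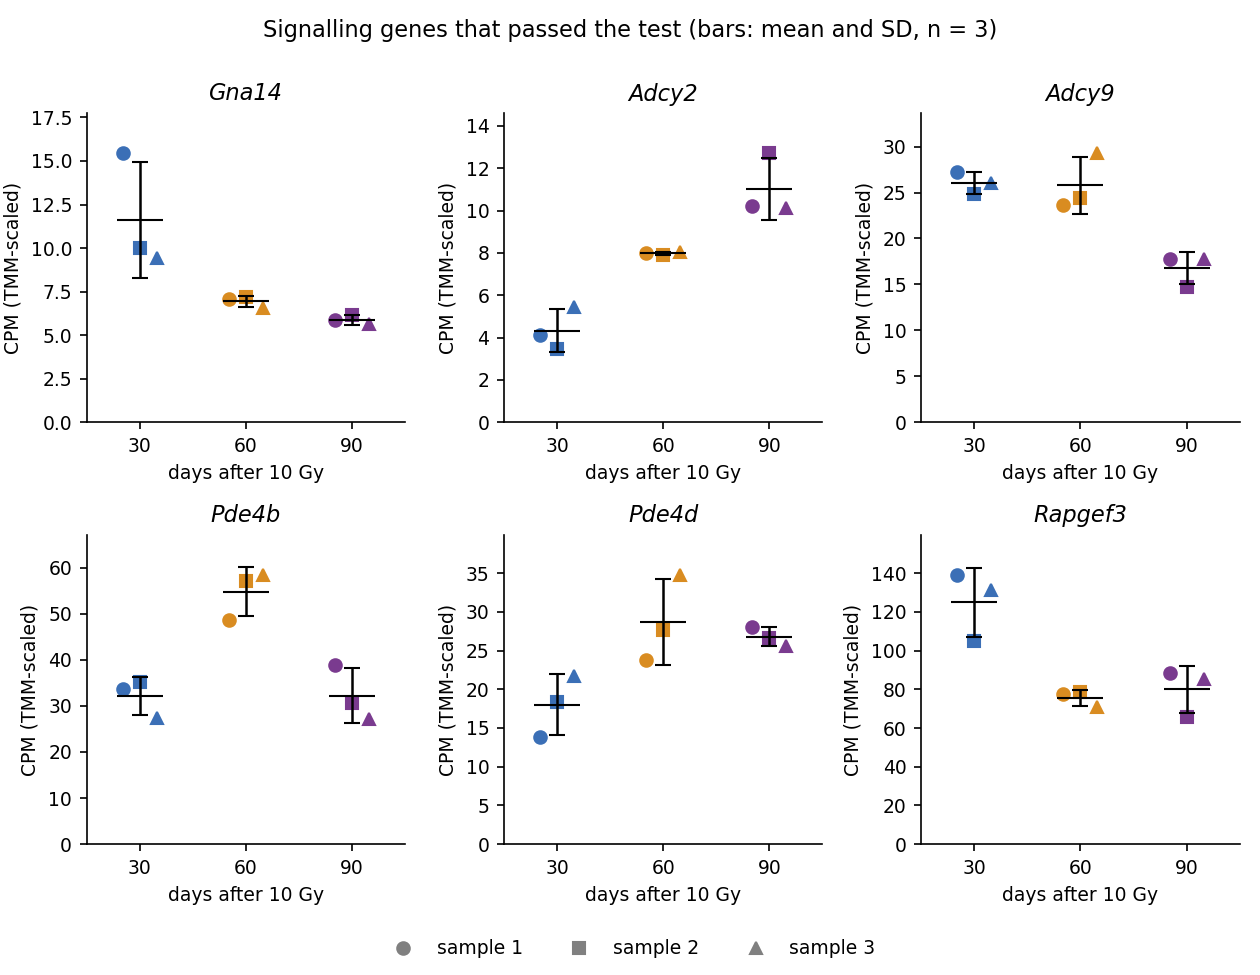
CPM after TMM scaling of the 6 pathway genes outside the receptor list that were called, by day after irradiation; points are libraries, marker shapes are sample numbers, and bars show the mean and SD of 3 libraries. Pde4b is highest at 60 days, Adcy2 is lowest at 30 and highest at 90 days, and Rapgef3 and Gna14 are highest at 30 days.

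Pde4b and Pde4d encode phosphodiesterases that break down cyclic AMP. Pde4b measured 33.6, 35.2 and 27.4 CPM in samples 1, 2 and 3 at 30 days, 48.6, 57.2 and 58.4 CPM at 60 days and 38.8, 30.6 and 27.2 CPM at 90 days. All 60-day libraries were above all others, and the 30- and 90-day values overlapped. It rose by 0.77 ± 0.13 (SE; adjusted p = 0.00441) to 60 days and fell by 0.76 (SE 0.13; adjusted p = 0.0138) from there to 90 days. The rise held under 17 of 17 alternatives. The later fall was lost with library-size scaling alone (adjusted p = 0.247), without 60-day sample 2 (adjusted p = 0.120), without 90-day sample 2 (adjusted p = 0.0981) and without 90-day sample 3 (adjusted p = 0.0870). Pde4d rose by 0.67 ± 0.16 (adjusted p = 0.0364) to 60 days, from 13.9 to 21.8 CPM at 30 days to 23.8 to 34.7 CPM at 60 days, a call that held under 9 of 17 alternatives. It was lost with library-size scaling alone (adjusted p = 0.264), with only the 6 samples of the contrast (adjusted p = 0.0715) and with limma-voom (adjusted p = 0.0527). It was also lost without 30-day sample 1 (0.52, adjusted p = 0.175), 30-day sample 2 (adjusted p = 0.133), 60-day sample 2 (adjusted p = 0.130), 60-day sample 3 (0.51, adjusted p = 0.0952) and 90-day sample 3 (adjusted p = 0.0628).

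Rapgef3 encodes Epac1, which cyclic AMP activates directly. It measured 139, 105 and 131 CPM in samples 1, 2 and 3 at 30 days, 77.4, 78.5 and 71.1 CPM at 60 days and 88.6, 65.9 and 85.4 CPM at 90 days. As with Adrb1, every 30-day library was above every later one, and the later time points overlapped. It fell by 0.73 (SE 0.13) to 60 days (adjusted p = 0.00410), a call that held under 17 of 17 alternatives, and by 0.65 (SE 0.12) from 30 to 90 days (adjusted p = 0.00637). The call to 90 days was lost with library-size scaling alone (-0.42, adjusted p = 0.129) and without 90-day sample 2 (-0.53, adjusted p = 0.0508).

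Genes that switch receptors off (receptor kinases, arrestins and RGS proteins) numbered 15, of which 13 were tested and 0 were called by edgeR or limma-voom. With 0.256% to 3.57% of all genes called by edgeR, 0 of 13 does not set this list apart. DESeq2 called 1, Rgs2, between 60 and 90 days and in the test of any difference, and the counts at an unadjusted p under 0.05 in edgeR were 1, 4 and 2 for 60 against 30, 90 against 60 and 90 against 30 days. The most abundant were Arrb1 (57.9 CPM) and Grk2 (53.3 CPM), whose products bind and phosphorylate active receptors.

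The genes whose log2 CPM ran most closely with each receptor over the 9 libraries were found among 9566 tested genes with a mean of at least 5 CPM (9567 for Adra1b). For Chrm3 they were Fzd4 (Pearson r = 0.99), Rasgrp1 (r = 0.97) and Ankrd12 (r = 0.96). For Adra1a they were Nacc2, Rap1gap2 (r = 0.98 each) and Zxdc (r = 0.97), and for Adrb1 they were Ppp1r13l (r = 0.95), Ctsa (r = 0.94) and Lonrf1 (r = 0.93). For Chrm1 they were Zfp839 (r = 0.95), Ciz1 (r = 0.93) and Dalrd3 (r = 0.92). For Vipr1 they were Bpnt1, Ndufc1 (r = 0.92 each) and Ctsh (r = 0.88), and for Adra1b they were Gsn, Fbxo10 and Gas7 (r = 0.89 each). These are descriptions over libraries that share time points, scaling and depth, picked as the highest among all genes compared. No receptor was itself among the genes named for another, but the ranking took the highest r, which leaves out genes that run oppositely. Adra1b, Vipr2 and Tacr1 had means below 5 CPM and could not be named. Adra1a and Adrb1 ran oppositely over the 9 libraries (Pearson r = -0.96), the largest correlation in size between receptors.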

How the data were processed

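Per the labels' protocols, total RNA was isolated from submandibular gland sections, treated with DNase and sequenced as mRNA libraries. The authors deposited raw read counts per Ensembl gene. The submitters' processing notes name fastp, STAR, featureCounts and the build mm10, with no versions. The use of strand is not given in the sources used here. Of genes overlapping a receptor, only Gm22820 shares exon bases, with Chrm1 on the opposite strand, and it had 0 counts. A further 3 count columns match no listed sample and were not used. Of 54532 genes, 54409 have a symbol, and 54495 were found in GENCODE mouse release 21 (GRCm38), which gave positions and lengths. Promoter sequences are from RefSeq (GRCm38.p6).

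The titles gave each sample its time point. filterByExpr (minimum count 10) left 15224 of 27001 genes with a count, and edgeR 4.0.16 with TMM factors and robust quasi-likelihood dispersion was fitted to all 9 libraries, the whole table being tested and adjusted together. The common biological coefficient of variation was 0.15. No libraries of a group agreed within sampling noise (chi-square over its degrees of freedom 9.56 to 33.5). Ratios of raw counts were tested by exact permutation. The edgeR fit was tested on simulated data. Total counts ran from 16541396 to 26065856. The limits given for 0 counts cover counting error only, while SDs are over libraries and SEs are from the edgeR fit, which includes the spread between libraries.

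Named genes are all 8 receptors, every listed pathway gene with an adjusted p under 0.05, the 2 most abundant of each list (some of which are not reported here), the 3 genes with the highest Pearson r with each tested receptor (log2 CPM, prior count 2, mean of at least 5 CPM) and Aqp5. Vip, Slc18a3, Tac1, Npy and Rgs2, and the markers Mucl2, Klk1, Tff2, Muc19, Myh4, Ckm, Acta1 and Ret, were chosen after their values were seen. The members and lists were chosen with earlier results of these data known. The ratio of Adra1a to Adrb1, and a comparison of 60 days with the other time points averaged, were added after seeing the data. The alternatives were library-size scaling, size factors of the DESeq2 type, DESeq2 1.42.0, limma-voom (limma 3.58.1), no filter, at least 10 counts in every library, the 6 samples of a contrast, the sample number as a block and leaving out each sample. Software was R 4.3.3, Python 3.11.15, numpy 2.4.6, pandas 2.3.3 and matplotlib 3.10.9.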

Additional observations from a re-analysis of the deposited data

Results flagged for a closer look

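The step from 30 to 60 days differed from the step from 60 to 90 days in 1 receptor and 1 pathway gene, by edgeR's quasi-likelihood test of 60 days against the average of the other time points, where 0.256% of all genes passed. Adra1a was 0.48 (SE 0.097) above that average at 60 days (log2; adjusted p = 0.0418), and all 3 of its 60-day libraries were above the other 6. This call held under 8 of 16 alternatives (adjusted p = 0.000804 to 0.697). It was lost without each of 30-day samples 1 and 2, 60-day samples 2 and 3 and all 90-day samples, where the value was 0.43 to 0.49 and the adjusted p 0.0592 to 0.352. Pde4b, which encodes a cyclic AMP phosphodiesterase, was 0.77 (SE 0.11) above the same average (adjusted p = 0.00298), and all 3 of its 60-day libraries were likewise above the other 6. For Adrb1 the same contrast was -0.64 (SE 0.14), which did not pass (adjusted p = 0.102), though 5 of 16 alternatives called it. The contrast was added after the data were seen.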

How the results depend on the processing

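Receptor and pathway calls were recomputed under up to 17 alternatives. With library-size scaling alone, the receptors called were 1 for 60 against 30 days (Adrb1), 0 for 90 against 30 days (3 at an unadjusted p under 0.05 in the TMM fit, and 2 each by DESeq2 and limma-voom) and 1 for any difference. The pathway genes called were then 2, 0, 1 and 3 for 60 against 30, 90 against 60, 90 against 30 days and any difference. Without the filter on low counts they were 6, 11 and 14 for the last 3 of these, and DESeq2 called 7 for 90 against 30 days. With only the 6 samples of a contrast, 1 receptor was called for 90 against 30 days and 1 pathway gene for 90 against 60 days. Over all genes, 238, 39, 544 and 501 calls for those 4 comparisons became 90, 28, 440 and 277 with library-size scaling and 459, 354, 1045 and 1194 without the filter. DESeq2 called 369, 141, 860 and 847. Leaving out each sample gave 0 to 2 receptors for 60 against 30 days (0 without 60-day sample 2), 0 to 2 for 90 against 30 days (0 without 30-day sample 1 or 90-day sample 3), and 1 to 3 for any difference (1 without 60-day sample 2). The pathway counts were 2 to 5, 0 to 2, 2 to 7 and 4 to 7 in the 4 comparisons. For 60 days against the average of the other time points, 1 receptor was called, 2 with no filter, with DESeq2 or with the sample number as a block, and 0 to 2 when a sample was dropped. Under library-size scaling that single call was Adrb1, not Adra1a.

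Vipr1 changed sign with library-size scaling (0.024, 0.060 and 0.085 for 60 against 30, 90 against 60 and 90 against 30 days) and for 60 against 30 days when samples were left out (-0.093 to 0.077), as did Adra1b (-0.36 to 0.21). None of these values passed the threshold. The change in Chrm3 to Aqp5 from 30 to 90 days was -0.012 to 0.11 when each sample was left out, with p from 0.0214 to 0.889 by the exact permutation test. With the longest transcript as the length, 6 of 8 receptors kept their rank, Chrm3 and Adra1a changing places. The labels do not say whether the sample numbers pair the libraries, and the correlations do not settle it. Only 1 of 9 same-numbered pairs had a correlation over 0.1 (-0.06 to 0.19). Pairs of unlike numbers ran from -0.21 to 0.19, and 4 of 9 libraries correlated best with their own number. With the replicate block, edgeR called 2, 0, 2 and 3 receptors in the 4 comparisons, as without it. The change in Chrm3 to Chrm1 was -0.62 with the block as without it, and the exact permutation test within numbers gave p = 0.0833. The cause of these differences was not tested. Depth limits Adra1b, Vipr2 and Tacr1 most, which had at most 35, 15 and 6 counts in a library.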
